A study of Macaca fascicularis with 3 samples.

Results

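Slow-twitch-like nuclei of the extraocular muscle (EOM), the set of small muscles that move the eye, were the myonuclei in which the slow myosin heavy chain MYH7 outweighed MYH15, the heavy chain of slow-tonic fibres. They were chosen as barcodes of the EOM nuclei library with at least 4 MYH7 UMIs (unique molecular identifiers, which count captured RNA molecules once each) and more MYH7 than MYH15 UMIs. This rule found 432 of 16491 EOM barcodes, which is 2.62% (95% interval 2.38 to 2.88%), among 37973 barcodes in the whole series. They made up 41.0% (38.0 to 44.1%) of the 1053 EOM barcodes with at least 4 MYH7 UMIs. The values of MYH7 and MYH15 therefore chose the nuclei and are given as a description.

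The muscles came from Macaca fascicularis, the cynomolgus macaque, and the series profiled nuclei of EOM, whole cells of EOM, and nuclei of a thigh muscle, the quadriceps femoris (QFM). Each group is 1 library, and the whole-cell library was not used here. The EOM slow-twitch-like nuclei were set against 2 other sets of the same EOM library and against slow nuclei of QFM. EOM slow-tonic-like nuclei were the other 621 barcodes with at least 4 MYH7 UMIs, those with no more MYH7 than MYH15. EOM MYH13 fast nuclei were 4246 barcodes with at least 20 UMIs of MYH13, the fast heavy chain particular to eye and laryngeal muscle, more of it than of MYH15, MYH3 or MYH7, and under 4 MYH7 UMIs. QFM slow nuclei were 3174 of 12503 barcodes with at least 10 MYH7 UMIs and more MYH7 than MYH3 UMIs. QFM fast nuclei, 5728 barcodes with at least 10 MYH3 UMIs and more MYH3 than MYH7, served only as the partner of QFM slow nuclei. No treatment or genotype is named for either muscle, and the sources used here do not give the number, age or sex of the animals. The QFM library is titled as nuclei, although its file names speak of single cells, so that muscle, library and preparation cannot be told apart in any comparison with QFM.

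Skeletal muscle fibres are multinucleate cells whose speed follows the myosin heavy chain they build. Slow-twitch fibres use MYH7 with the slow light chains MYL2 and MYL3 and the slow troponins TNNI1 and TNNC1, contract slowly and resist fatigue. Eye muscles hold, beside fast twitch fibres, slow fibres of several kinds. Singly innervated twitch fibres carry 1 endplate, whereas multiply innervated fibres carry many small endplates and include slow-tonic fibres with MYH15 and fibres with the cardiac alpha chain MYH6.

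The EOM library held 61618999 UMIs and the QFM library 72590186. The 432 nuclei held 2024451 UMIs, with a median of 3947.5 and a range of 503 to 23233 per nucleus, against a median of 6254.5 in QFM slow nuclei. A doublet caller marked 65 of the 432 (15.05%), against 13.14% of QFM slow, 23.99% of slow-tonic-like and 20.09% of MYH13 fast nuclei. In a clustering of the library, 382 (88.43%) lay in clusters named myofibre-like from fixed markers. The libraries shared 51 barcode sequences, of which 3 were among the 432, 15 among QFM slow nuclei and none in both. UMIs were summed over the nuclei of a set and are given as CPM, counts scaled to a total of 1000000 per set. Differences are log2 ratios of these levels with 95% intervals that cover counting error only. With 1 library per group there is no replicate, so no test was made and no p-value is given. A gene was compared with at least 20 counts over both sums and is called higher or lower at 2-fold or more.

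Of the markers of the label, MYH6, MYL2 and MYL3 were higher in slow-twitch-like nuclei than in MYH13 fast nuclei of the same library, while MYH7 chose both sets. The light chains reached only a small part of their level in slow nuclei of the thigh. MYL2, the slow regulatory light chain, had 345 CPM in slow-twitch-like nuclei, 140 in slow-tonic-like, 32.7 in MYH13 fast and 2682 in QFM slow nuclei. MYL3, the slow essential light chain, had 64.2 CPM in slow-twitch-like nuclei, 18.2 in slow-tonic-like, 3.08 in MYH13 fast and 936 in QFM slow nuclei. Against QFM slow nuclei the log2 ratio was -2.96 (-3.07 to -2.85) for MYL2 and -3.87 (-4.13 to -3.62) for MYL3. Both therefore stood between the fast nuclei of their own library and the slow nuclei of the limb muscle. The same order held with every nucleus thinned to 2000 UMIs, which kept 388 slow-twitch-like and 3159 QFM slow nuclei and left out 44 and 15. MYL2 was then seen in 44.1% (39.1 to 49.2%) of slow-twitch-like nuclei, against 96.3% of QFM slow nuclei; the unthinned shares were 64.1% and 99.8%. Endothelial-like nuclei, which should lack MYL2, showed it in 4.90% in EOM and 26.5% in QFM, with median depths of 2080 and 3665 UMIs before thinning. MYL3 was seen in 13.4% (10.2 to 17.2%) of thinned slow-twitch-like nuclei, against 77.2% of QFM slow nuclei, and in 0.555% of EOM endothelial-like nuclei. For MYH7 itself, which chose both sets, the levels were 2128 CPM in slow-twitch-like and 3939 CPM in QFM slow nuclei.

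**Figure D1:**
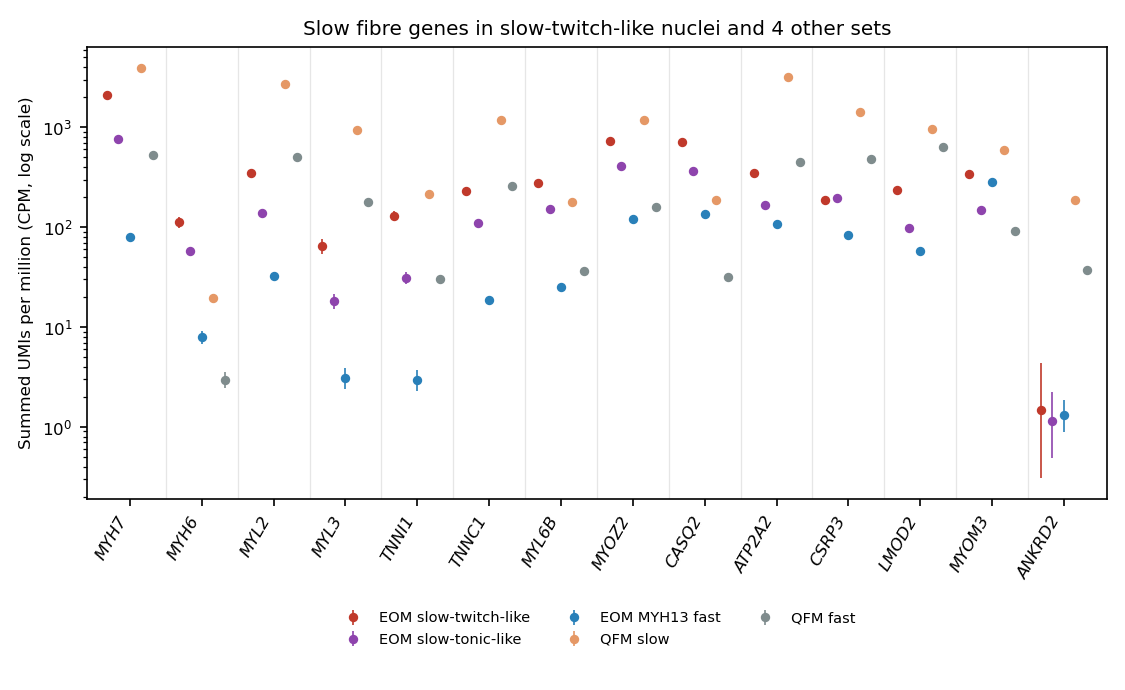
Levels of 14 slow fibre genes (y axis, CPM on a log scale) in the 5 sets of nuclei; points are the level of the summed set and lines are exact Poisson 95% intervals. MYL2 stands at 345 CPM in EOM slow-twitch-like nuclei and 2682 CPM in QFM slow nuclei, while CASQ2 stands at 704 and 188 CPM and ANKRD2 at 1.48 and 189 CPM.

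Heavy chain RNA in slow-twitch-like nuclei was a mixture. Of the UMIs of the 6 heavy chains that carry a symbol, 34.6% (33.9 to 35.3%) were MYH13, 29.8% MYH3, 24.55% MYH7, 6.88% MYH15, 2.91% MYH4 and 1.29% MYH6. In QFM slow nuclei MYH7 made up 91.7%, MYH3 7.75% and MYH6 0.456%. Their rule required at least 10 MYH7 UMIs and more MYH7 than MYH3, so MYH7 led in all of them by selection. The EOM rule set no condition on MYH3, and the shares of the 2 sets are therefore a description. The row named MYH3, the embryonic chain, is uncertain, because MYH1, MYH2 and MYH8 carry no symbol in these tables and are close copies of it. Per nucleus, slow-twitch-like nuclei had a median of 8 MYH7 UMIs (4 to 43), 2 MYH15 UMIs (0 to 23), 6 MYH13 UMIs (0 to 329) and 7 MYH3 UMIs (0 to 111). MYH7 had more UMIs than every other chain in 196 nuclei (45.4%), MYH3 in 120 (27.8%), MYH13 in 79 (18.3%) and MYH6 in 2, with no single leading chain in 35. MYH15 was without a UMI in 85 nuclei, and 172 nuclei had at least 10 MYH7 UMIs, the minimum used for QFM.

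Much of the MYH13 and MYH15 signal lay at the level that non-muscle nuclei of the library also showed. MYH13 had 2999 CPM in slow-twitch-like nuclei and 2637 CPM in endothelial-like nuclei, against 14590 CPM in MYH13 fast nuclei. After thinning, MYH13 was seen in 92.5% of slow-twitch-like and 93.2% of endothelial-like nuclei, which is no more than this background. MYH15 had 596 CPM in slow-twitch-like and 925 CPM in endothelial-like nuclei. MYH3, by contrast, had 2581 CPM in slow-twitch-like and 1454 CPM in endothelial-like nuclei, and MYH6 had 112 and 7.37 CPM. The 79 nuclei led by MYH13 had 7331 CPM of it and a called doublet share of 41.8%, whereas the 196 led by MYH7 had 1246 CPM of MYH13 and a called doublet share of 7.14%. The part of doublets in the mixture was not tested.

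**Figure D2:**
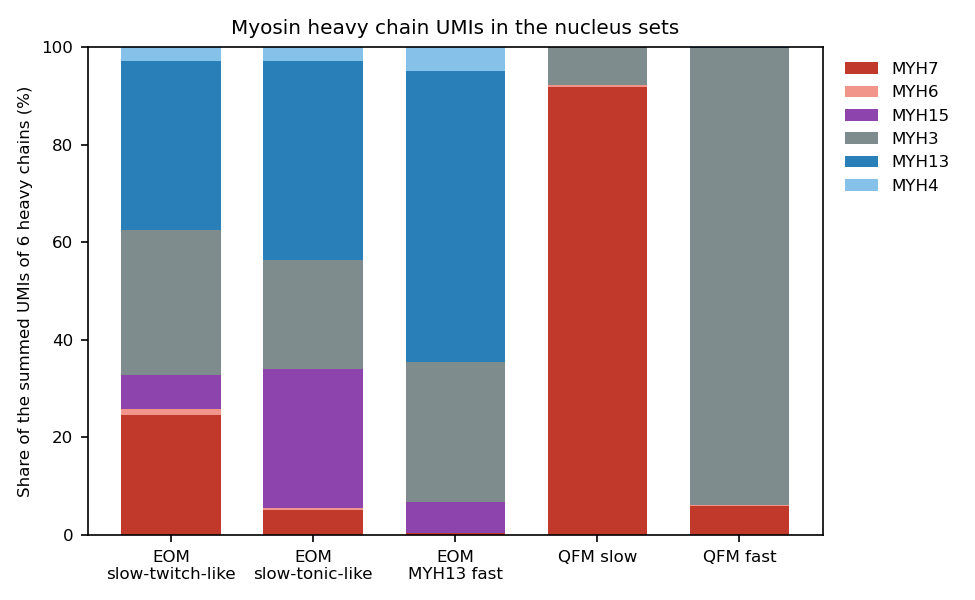
Share of the summed UMIs of 6 myosin heavy chains (y axis, percent) in each of the 5 sets; each bar is 1 set and each colour 1 chain. MYH7 fills 24.55% of the bar of EOM slow-twitch-like nuclei and 91.7% of that of QFM slow nuclei, and MYH13 fills 34.6% of the slow-twitch-like bar. The QFM slow rule required more MYH7 than MYH3 UMIs and the EOM rule did not.

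The threshold of the rule separated nuclei that differed in more than MYH7. The 53 nuclei with exactly 4 MYH7 UMIs that met the rule had 698 CPM of TECRL, an enzyme-like gene linked to heart rhythm, 102 CPM of TNNI1 and 2658 CPM of MYH13, and 86.8% were myofibre-like. The 100 nuclei with 3 MYH7 UMIs just outside had 161 CPM of TECRL, 24.8 CPM of TNNI1 and 7769 CPM of MYH13, and 60% were myofibre-like. Along the other edge, 26 nuclei with MYH7 exceeding MYH15 by a single UMI had 518 CPM of TECRL, 1213 CPM of TNNT2 and 196 CPM of CORIN. The 24 nuclei with equal UMIs of both had 158 CPM of TECRL, 1686 CPM of TNNT2 and 588 CPM of CORIN. Within the rule, 144 nuclei had 4 to 6 MYH7 UMIs, 225 had 7 to 15 and 63 had 16 or more. From the lowest of these bins to the highest, MYL2 had 322, 332 and 406.6 CPM and MYOZ2 625, 712 and 922 CPM. TECRL did not follow the bins, with 1088, 991 and 1135 CPM.

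Against QFM slow nuclei the question was how a slow twitch-like nucleus of the eye muscle differs from a slow nucleus of the limb. Of 15189 genes compared, 3927 (25.9%) were higher and 1593 (10.5%) lower in slow-twitch-like nuclei, together 36.3%, with a median log2 ratio of 0.29 over all genes. With scaling by the median of ratios, which takes 0.31 off every log2 ratio, the split was 2879 higher and 2449 lower. The balance of higher against lower genes thus depends on the scaling. It also depends on the minimum count, since with every gene of at least 1 count 7775 were higher and 1593 lower. The lists of eye muscle patterning genes, synaptic and guidance genes and cardiac isoforms held more members at least 2-fold higher than lower. The lists of slow sarcomere, M-band and Z-disc, mitochondrial and fuel genes held more lower than higher.

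Of the 14 measured slow fibre sarcomere genes, 1 was higher, 8 were lower and 5 lay within 2-fold, with a median log2 ratio of -1.73. The 7 measured myofibre markers, from the list that named the myofibre-like clusters, also went down. None of these was higher and 5 were lower, with a median log2 ratio of -1.43. Whether slow genes differed beyond myofibre genes in general was not tested. The calcium pump ATP2A2 had 347 CPM in slow-twitch-like nuclei, against 3221 CPM in QFM slow nuclei (log2 ratio -3.21, -3.32 to -3.11). TNNC1, the slow and cardiac troponin C, had 230 CPM in slow-twitch-like and 1174 CPM in QFM slow nuclei (-2.35, -2.49 to -2.22). The stretch-responsive gene ANKRD2 was nearly absent, with 3 counts or 1.48 CPM in slow-twitch-like nuclei, against 189 CPM in QFM slow nuclei (-6.99, -9.27 to -5.45). Other slow genes were close in level. TNNI1, the slow inhibitory troponin, had 129 CPM in slow-twitch-like and 216 CPM in QFM slow nuclei, MYOZ2, a slow-fibre calcineurin binder of the Z-disc, had 734.5 and 1182 CPM, and MYL6B, a slow light chain, had 276 and 181 CPM. CASQ2, the slow and cardiac calcium store protein, was the exception, with 704 CPM in slow-twitch-like and 188 CPM in QFM slow nuclei (1.91, 1.82 to 1.99). No measured slow gene lay at or under the level of EOM endothelial-like nuclei.

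Of 12 measured fast fibre genes, 4 were higher, 3 lower and 5 within 2-fold, and 5 of them (MYL11, TNNT3, TNNI2, TNNC2 and PVALB) were at or under the level of EOM endothelial-like nuclei. The median log2 ratio of this list was 0.31, and it ran from -0.66 to 0.47 over the alternative settings. The QFM slow rule left out nuclei with no more MYH7 than MYH3, whereas the EOM rule did not. TNNT3, the fast troponin T, had 822 CPM in slow-twitch-like nuclei and 418 CPM in QFM slow nuclei, and EOM endothelial-like nuclei had 867 CPM. PVALB, a fast calcium buffer, had 52.9 CPM in slow-twitch-like nuclei and 0.267 CPM in QFM slow nuclei, and EOM endothelial-like nuclei had 64.7 CPM. ACTN3, the fast Z-disc actinin, was lower, with 10.4 CPM in slow-twitch-like and 154 CPM in QFM slow nuclei.

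Of 7 cardiac and developmental isoforms, 6 were higher and none lower, with a median log2 ratio of 2.87. Of the 9 list members with a count in slow-twitch-like nuclei, 2 (IGF2 and MYL9) lay at or under the level of EOM endothelial-like nuclei. TNNT2, the cardiac and embryonic troponin T, had 923 CPM in slow-twitch-like nuclei and 1.29 CPM in QFM slow nuclei (9.48, 8.96 to 10.06), with 123 CPM in EOM endothelial-like nuclei. Thinned to 2000 UMIs, TNNT2 was seen in 75.5% of slow-twitch-like nuclei, 0.127% of QFM slow nuclei and 14.2% of EOM endothelial-like nuclei. ACTC1, cardiac actin, had 731 and 24.1 CPM, but it was at 613 CPM in MYH13 fast nuclei and so was not limited to slow nuclei of the eye muscle. CHRNG, the fetal acetylcholine receptor subunit, had 48.9 CPM in slow-twitch-like and 6.67 CPM in QFM slow nuclei. MYH6 had 112 and 19.6 CPM (2.52, 2.28 to 2.75), and its level differed between clusters of these nuclei, with 312 CPM in cluster 17 and 18.6 CPM in cluster 3.

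None of the 20 M-band, Z-disc and stretch genes was higher and 15 were lower, with a median log2 ratio of -2.19. MYOM2, a myomesin of the M-band, had 5.93 CPM in slow-twitch-like nuclei and 1423 CPM in QFM slow nuclei (-7.91, -8.86 to -7.10). It was seen in 0.515% of thinned slow-twitch-like nuclei and 72.8% of thinned QFM slow nuclei, and QFM endothelial-like nuclei showed it in 11.0%. ACTN2, the Z-disc actinin, had 560.2 CPM in slow-twitch-like and 7261 CPM in QFM slow nuclei, and NRAP, a myofibril assembly scaffold, had 392.2 and 4446 CPM. MYPN and LDB3, both of the Z-disc, were within 2-fold. Skeletal actin ACTA1 had 475 CPM in slow-twitch-like and 6776 CPM in QFM slow nuclei. It was also at 1160 CPM in QFM endothelial-like nuclei.

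Of 8 cranial muscle patterning genes, 6 were higher and none lower, with a median log2 ratio of 4.66. Within EOM, slow-twitch-like nuclei were close to the other sets in this list. Its median was 0.22 over MYH13 fast nuclei, with 7 of 9 genes within 2-fold. Over slow-tonic-like nuclei it was 0.29, with 6 of 7 within 2-fold. LMX1A, a homeobox factor, had 655 CPM in slow-twitch-like and 2.89 CPM in QFM slow nuclei (7.82, 7.46 to 8.21), and ALX4, another homeobox factor, had 268 and 3.42 CPM. The limb and trunk list went partly the other way, with 2 of 11 higher and 5 lower. The transcription factors SIM1 and HOXC9 had no count in slow-twitch-like nuclei, against 38.4 and 15.6 CPM in QFM slow nuclei, and LGR5, a Wnt pathway receptor, had 1.98 CPM, against 444.5 CPM. TBX15, however, had 1105 CPM in slow-twitch-like and 288 CPM in QFM slow nuclei.

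Of 19 neuromuscular junction genes, 14 were higher and none lower, with a median log2 ratio of 1.65. COL25A1, a muscle collagen that growing motor axons require in mice, had 4347 CPM in slow-twitch-like nuclei and 20.2 CPM in QFM slow nuclei (7.75, 7.61 to 7.89). CHRNA1, the acetylcholine receptor alpha subunit, had 153 CPM in slow-twitch-like and 6.85 CPM in QFM slow nuclei (4.48, 4.19 to 4.77). MUSK, the kinase that gathers the receptors, had 505 and 25.7 CPM. ACHE, the acetylcholine-splitting enzyme, lay within 2-fold. Of the 20 junction genes with a count in slow-twitch-like nuclei, 5 lay at or under the level of EOM endothelial-like nuclei (CHRNE, UTRN, NES, SYNE1 and PHLDB2). Of 27 guidance and neural receptor genes, 25 were higher and none lower. Within EOM the median log2 ratio of this list was 0.06 over MYH13 fast and 0.03 over slow-tonic-like nuclei. There 19 and 21 of the 27 lay within 2-fold. SEMA3A, a repellent of axons, had 399 CPM in slow-twitch-like and 1.601 CPM in QFM slow nuclei, and the glutamate receptor GRIA3 had 546.8 and 0.623 CPM. Of these 27 genes, 8 lay at or under the level of EOM endothelial-like nuclei.

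Among 20 potassium, chloride and sodium channel genes, 9 were higher and 6 lower. KCND2, a fast-inactivating potassium channel, had 857.5 CPM in slow-twitch-like and 24.5 CPM in QFM slow nuclei, and KCNN2, a calcium-gated channel, had 496 and 4.76 CPM. CLCN1, the chloride channel that steadies the resting fibre, was lower, with 108 and 266 CPM. Of 25 regulators of the slow programme, 5 were higher and 20 within 2-fold. PROX1, a homeobox factor of slow fibres, had 225 CPM in slow-twitch-like and 53.9 CPM in QFM slow nuclei (2.06, 1.90 to 2.22). The coactivator of oxidative genes PPARGC1A had 514 and 985 CPM and did not reach 2-fold.

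Of 20 mitochondrial genes none was higher and 11 were lower, with COX5A, a respiratory chain subunit, at 50.4 CPM in slow-twitch-like and 201 CPM in QFM slow nuclei. Fatty acid genes were 2 higher and 10 lower of 20, and LPL, which frees fatty acids from blood lipids, had 36.1 and 430 CPM. Glycolysis and glycogen genes were 2 higher and 9 lower of 21. PFKFB1, a regulator of glycolysis, had no count in slow-twitch-like nuclei and 504 CPM in QFM slow nuclei, a log2 ratio of -8.41 or further from 0 at a floor of 3 counts per set. In slow-twitch-like nuclei 7 of 20 mitochondrial and 7 of 20 fatty acid genes lay at or under the level of EOM endothelial-like nuclei. Within the EOM library all 20 mitochondrial genes lay within 2-fold of MYH13 fast nuclei.

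Smaller groups were mixed. Of 22 dystrophin complex and costamere genes, 5 were higher and 2 lower, and dystrophin itself, DMD, had 8762 CPM in slow-twitch-like and 15860 CPM in QFM slow nuclei. Of 17 growth and atrophy genes, 5 were higher and 4 lower, with the growth factor receptor IGF1R at 614.5 and 138 CPM and the muscle F-box protein FBXO40 at 38.5 and 362 CPM. In slow-twitch-like nuclei 6 of 18 genes of this list, IGF1R among them, lay at or under the level of EOM endothelial-like nuclei. None of 8 immediate-early genes was higher and 6 were lower, with FOS at no count in slow-twitch-like nuclei and 51.2 CPM in QFM slow nuclei. Of 10 muscle spindle genes 7 were higher and 2 lower, the higher ones including the mechanical channel PIEZO2 at 130 and 8.05 CPM. In slow-twitch-like nuclei 3 of 11 spindle genes (NTF3, LMCD1 and VCAN) lay at or under the level of EOM endothelial-like nuclei. Calcium handling genes were 2 higher and 2 lower of 20; RYR3, a ryanodine receptor, had 357 and 377 CPM.

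Beyond the lists, the highest ratios over QFM slow nuclei after MYH13 were those of HDC, HSD17B2, NTMT2, GRIA3 and PI15. HDC, which makes histamine, had 52.9 CPM in slow-twitch-like nuclei and a single count in QFM slow nuclei, so its log2 ratio of 10.21 has an interval of 7.71 to 15.53. HSD17B2, a steroid dehydrogenase, had 256 CPM in slow-twitch-like and 0.222 CPM in QFM slow nuclei (10.17, 8.94 to 11.80). NTMT2, a methyltransferase of protein ends, had 131 and 0.133 CPM, but EOM endothelial-like nuclei also had 107 CPM. RIT2, a small GTPase known from neurons, had 1862 and 3.96 CPM. NDP, a ligand of the Wnt pathway, had 75.1 CPM and no count in QFM slow nuclei. On the other side stood SLC36A2, an amino acid transporter, with no count in slow-twitch-like and 329 CPM in QFM slow nuclei, and ABRA, an actin-binding activator, with 13.8 and 380 CPM.

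Fibroblast, endothelial and macrophage markers were low in both sets. The 9 fibroblast markers summed to 424 CPM in slow-twitch-like and 317 CPM in QFM slow nuclei, against 5296 and 10770 CPM in fibroblast-like nuclei of EOM and QFM. The 9 endothelial markers summed to 409 and 299 CPM, against 7288 and 11850 CPM in endothelial-like nuclei. MYH13 fast nuclei had 457 CPM of fibroblast and 449.3 CPM of endothelial markers, near the slow-twitch-like sums. Satellite cell markers differed more, with 446 CPM in slow-twitch-like and 54.4 CPM in QFM slow nuclei over 5 genes, mostly NCAM1 at 313 CPM and PAX7 at 116 CPM. PAX7 was at 104.5 CPM in MYH13 fast nuclei, a level close to that of slow-twitch-like nuclei. The satellite cell markers together summed to 204.8 CPM in MYH13 fast nuclei, under the slow-twitch-like sum. The 7 tendon and myotendinous markers summed to 500.4 CPM in slow-twitch-like and 132 CPM in QFM slow nuclei, mostly COL24A1 at 421 CPM, with TNMD at no count. They summed to 96.6 CPM in MYH13 fast nuclei and to 689.7 CPM in slow-twitch-like nuclei of cluster 3. Mural markers summed to 599 and 519 CPM, macrophage markers to 91.9 and 97.2 CPM and Schwann markers to 144 and 101 CPM. T and NK markers summed to 20.8 and 10.8 CPM, with CD3D and CD2 at no count in slow-twitch-like nuclei. Adipocyte markers summed to 5.93 and 6.09 CPM, with ADIPOQ, LEP and CIDEC at no count in slow-twitch-like nuclei. The part of these cell types in the differences was not tested.

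**Figure D3:**
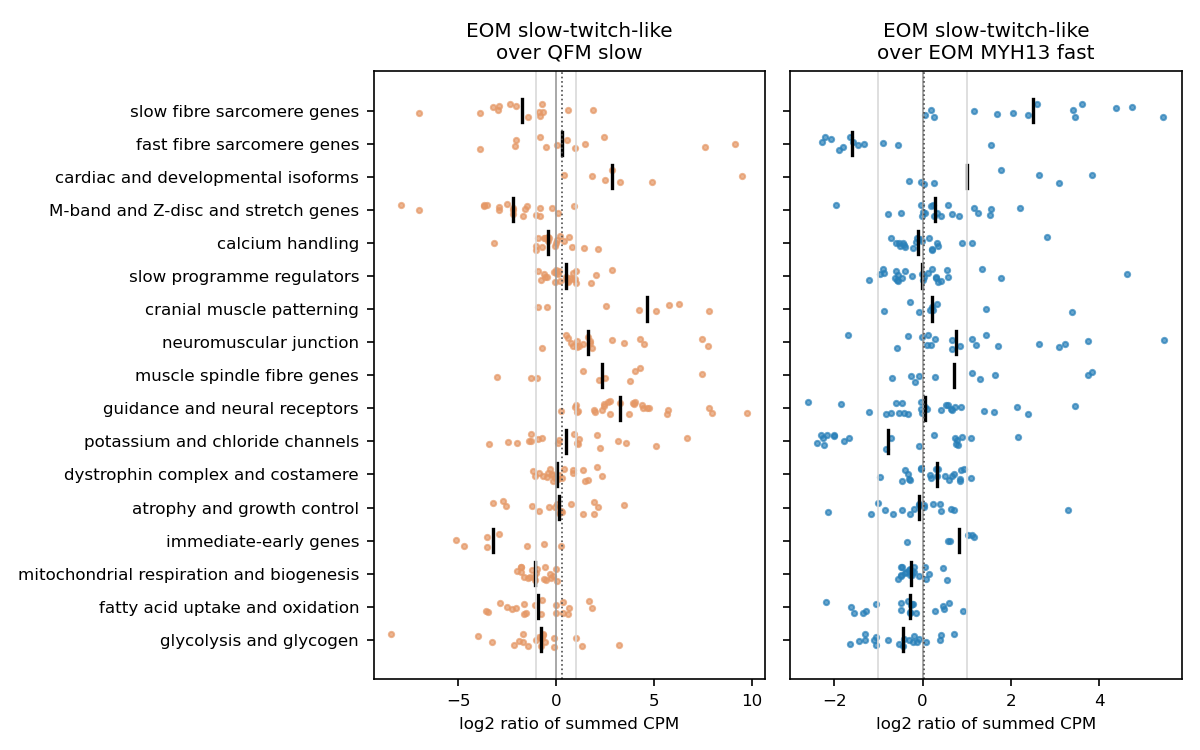
Log2 ratios (x axes) of the listed genes in EOM slow-twitch-like nuclei over QFM slow nuclei (left) and over EOM MYH13 fast nuclei (right), 1 row per gene list; each point is 1 gene, the black bar is the list's median, the dotted line is the median of all genes compared and the pale lines mark 2-fold. The median of slow fibre sarcomere genes is -1.73 over QFM slow and 2.498 over MYH13 fast nuclei.

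Within the eye muscle, the comparison with MYH13 fast nuclei asked what sets slow-twitch-like nuclei apart from the main fast type, with library and dissection in common. Of 16615 genes compared, 1374 (8.27%) were higher and 1500 (9.03%) lower, with a median log2 ratio of 0.03. Of 14 slow fibre sarcomere genes, 11 were higher and none lower, with a median log2 ratio of 2.498. TNNI1 had 129 CPM in slow-twitch-like and 2.95 CPM in MYH13 fast nuclei (5.45, 5.06 to 5.86), and TNNC1 had 230 and 18.6 CPM. Of 12 fast genes, 9 were lower and 1 higher, the higher one being MYLK2, a myosin light chain kinase, at 32.1 and 10.9 CPM. The fast troponin TNNT3 had 822 CPM in slow-twitch-like and 3485 CPM in MYH13 fast nuclei (-2.08, -2.15 to -2.01). The fast nuclei were themselves chosen by MYH13 and by low MYH7.

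Of the 8 genes named for the highest ratios over MYH13 fast nuclei, only TNNI1, given above, was in the sarcomere lists. TECRL had 1045 CPM in slow-twitch-like and 13.4 CPM in MYH13 fast nuclei (6.29, 6.11 to 6.46). LRP2, a large endocytic receptor, had 202.5 and 3.95 CPM, and CA3, the carbonic anhydrase of slow muscle, had 516 and 10.1 CPM. COL25A1 had 4347 and 97.4 CPM (5.48, 5.41 to 5.55). These genes were also low in EOM endothelial-like nuclei, where TECRL had 34.4 CPM, LRP2 9.01 CPM, CA3 20.3 CPM and COL25A1 125.5 CPM. PROX1 had 225 CPM in slow-twitch-like and 9.08 CPM in MYH13 fast nuclei (4.63, 4.39 to 4.87), with 27.6 CPM in endothelial-like but 190 CPM in satellite cell-like nuclei of EOM. DACH1, a transcriptional cofactor that works with EYA proteins, had 1560 CPM in slow-twitch-like and 148 CPM in MYH13 fast nuclei, but 772 CPM in EOM endothelial-like nuclei.

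Of 20 junctional genes, 9 were higher than in MYH13 fast nuclei and 1 lower (CHRNE, the adult receptor subunit, which rests on 2 counts, at -1.68 and -4.75 to 0.22). CHRNA1 had 153 CPM in slow-twitch-like and 16.2 CPM in MYH13 fast nuclei (3.24, 3.01 to 3.46), CHRNG 48.9 and 5.73 CPM, and ERBB3, a neuregulin receptor, 63.2 and 4.69 CPM. Of 20 channel genes, 2 were higher and 9 lower. Outside that list, the sodium channel SCN9A had 48.4 CPM in slow-twitch-like and 271 CPM in MYH13 fast nuclei. The potassium-dependent sodium-calcium exchanger SLC24A2, also outside it, had 28.2 and 242 CPM (-3.10, -3.51 to -2.73). EOM endothelial-like nuclei had 42.6 CPM of SCN9A and 33.0 CPM of SLC24A2, near the slow-twitch-like levels. KCNMA1, a large-conductance potassium channel, had 5163 and 16440 CPM, and EOM endothelial-like nuclei had 3337 CPM. Glycolysis and glycogen genes were lower in 7 of 20, with PHKA1, a subunit of phosphorylase kinase, at 231 and 723 CPM.

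Against slow-tonic-like nuclei of the same library the difference was smaller in number, with 647 of 13966 genes higher (4.63%) and 932 lower (6.67%). The slow-tonic-like set rests on a few very deep barcodes, since 76 of more than 20000 UMIs held 56.2% of its UMIs. Of its barcodes, 70 lay in a cluster named endothelial-like, with a median of 48323 UMIs and 347.5 MYH13 UMIs, and they held 3533813 of its 7030127 UMIs. Of the whole slow-tonic-like set, 71.2% were myofibre-like, against 88.43% of slow-twitch-like nuclei. Without barcodes above 20000 UMIs in either set, 420 genes were higher and 356 lower. Of 13 slow fibre sarcomere genes, 8 were higher and none lower, with a median log2 ratio of 1.07. TNNI1 had 129 CPM in slow-twitch-like and 31.0 CPM in slow-tonic-like nuclei (2.06, 1.80 to 2.33). TECRL had 1045 and 109 CPM (3.27, 3.15 to 3.39), CA3 516 and 49.5 CPM, and PTPRO, a receptor phosphatase, 109 and 9.10 CPM (3.58, 3.18 to 4.01). TNNT2 had 923 and 730 CPM (0.34). The lowest ratio outside the rule was that of CTNNA2, a neural catenin, at 13.3 and 94.2 CPM (-2.82, -3.43 to -2.27), and NRXN3, a synaptic adhesion gene, had 254 and 1347 CPM (-2.40). The levels of both in slow-twitch-like nuclei were under those of EOM endothelial-like nuclei, at 16.8 CPM for CTNNA2 and 581 CPM for NRXN3. Without barcodes above 20000 UMIs, the median of the slow fibre sarcomere genes was 0.54, and the log2 ratio was 1.19 for TNNI1, 3.10 for TECRL, 3.32 for CA3 and 3.84 for PTPRO. It was then -0.55 for TNNT2, -3.85 for CTNNA2 and -1.93 for NRXN3. TNNT2 thus changed sign without reaching 2-fold either way.

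The slow-twitch-like nuclei were not uniform. Of the 432, 263 (60.9%) lay in a cluster numbered 3, which held 50 slow-tonic-like nuclei, and 104 (24.1%) lay in cluster 17, which held 387 slow-tonic-like nuclei. The next were 15 nuclei in an endothelial-like cluster, 11 of them called doublets, and 13 each in a fibroblast-like and another myofibre-like cluster. Clusters 3 and 17 were both myofibre-like, with medians of 3838 and 3913 UMIs among these nuclei. MYH7 was nearly equal in them, at 2153 CPM in cluster 3 and 2442 CPM in cluster 17. The clusters were formed from the same genes, so their differences are a description. Of 8559 genes compared, 822 (9.6%) were higher and 468 (5.47%) lower in the slow-twitch-like nuclei of cluster 3 than in those of cluster 17.

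Cluster 3 carried the genes that stood highest over fast and slow-tonic-like nuclei. TECRL had 1653 CPM in slow-twitch-like nuclei of cluster 3 and 55.2 CPM in those of cluster 17. LRP2 had 316.5 and 2.12 CPM, CA3 787 and 12.7 CPM, and PTN, a secreted growth factor, 529.7 and 6.37 CPM. After thinning, TECRL was seen in 76.4% of the nuclei of cluster 3 and 4.35% of those of cluster 17, against 28.1% of QFM slow nuclei. DKK2, a secreted Wnt inhibitor, had 2839 CPM in cluster 3, 161 CPM in cluster 17 and 288 CPM in QFM slow nuclei. The tendon-list gene COL24A1 went with cluster 3 too, at 646.5 and 29.7 CPM, while TNMD and THBS4 of that list had no count in cluster 3. COL24A1 was also among the top genes of the satellite cell-like cluster of EOM. Its highest level among the non-muscle reference nuclei of EOM was 2248 CPM. COL25A1 was high in both, with 6257 CPM in cluster 3 and 1405 CPM in cluster 17. The slow light chains differed in direction, as MYL3 had 80.4 CPM in cluster 3 and 25.5 CPM in cluster 17, MYL2 had 338 and 327 CPM and MYL6B had 239.5 and 397 CPM.

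The cardiac alpha chain was higher in cluster 17 than in cluster 3. MYH6 had 18.6 CPM in slow-twitch-like nuclei of cluster 3, 312 CPM in those of cluster 17 and 19.6 CPM in QFM slow nuclei, and it was seen in 4.07%, 26.1% and 3.17% of thinned nuclei. CORIN, a protease that activates a heart hormone, had 25.4 CPM in cluster 3 and 685 CPM in cluster 17. KCND2 had 245 and 2531 CPM, GRIA3 220.0 and 1555 CPM, and TNNT2 712 and 1748 CPM. The 387 slow-tonic-like nuclei of cluster 17 had levels close to those of the slow-twitch-like nuclei beside them for TNNT2 (1715 CPM), KCND2 (2729 CPM), CORIN (615 CPM) and MYL3 (24.9 CPM). They had 1714 CPM of MYH7 and 7240 CPM of MYH15, the chains of the rule. Nuclei of a cluster are alike by construction, and these genes were named because they mark cluster 17, so the likeness is a description. Slow sarcomere genes were present in the 104 nuclei, with 327 CPM of MYL2, 895 CPM of MYOZ2, 210 CPM of TNNC1 and 84.9 CPM of TNNI1. The slow-tonic-like nuclei of the cluster had 275 CPM of MYL2, 760.5 CPM of MYOZ2, 192 CPM of TNNC1 and 60.02 CPM of TNNI1. The slow-twitch-like nuclei of cluster 3 had 720 CPM of MYOZ2, 184 CPM of TNNC1 and 161 CPM of TNNI1.

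**Figure D4:**
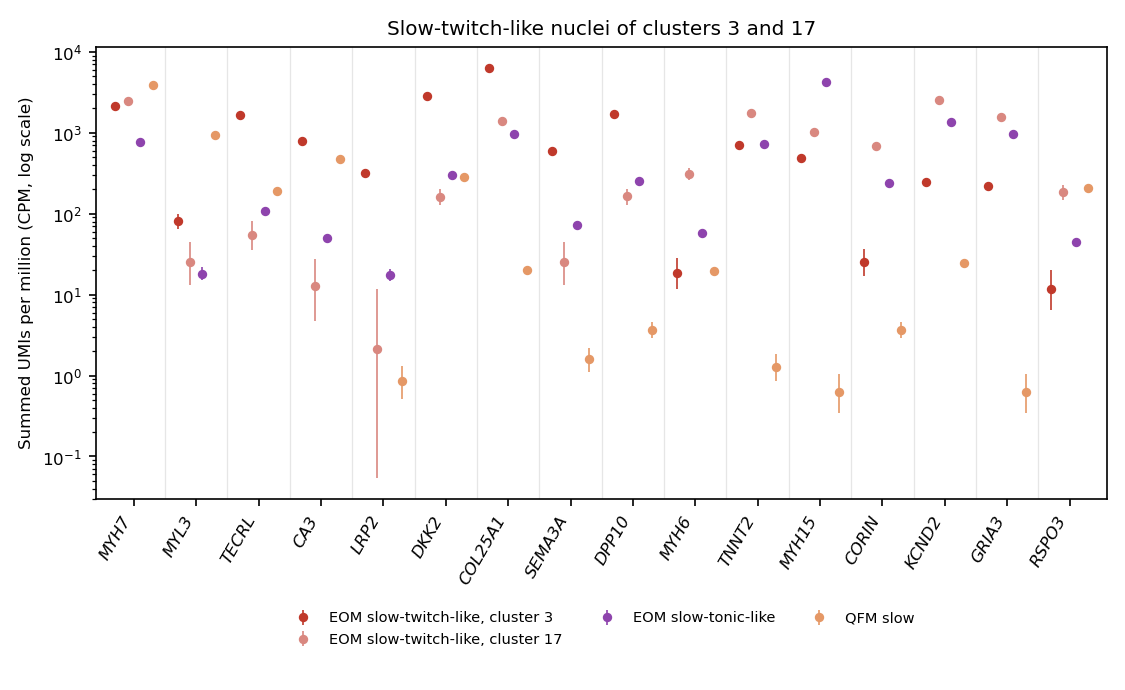
Levels of 16 genes (y axis, CPM on a log scale) in the EOM slow-twitch-like nuclei of cluster 3 and of cluster 17, in EOM slow-tonic-like nuclei and in QFM slow nuclei; points are summed sets and lines exact Poisson 95% intervals. TECRL, CA3 and LRP2 are high in cluster 3 and low in cluster 17, and MYH6 and CORIN the reverse, while MYH7 stands at 2153 and 2442 CPM.

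A MYH6 UMI was seen in 55 of the 432 nuclei (12.7%), of which 27 had at least 2. In slow-twitch-like nuclei with a MYH6 UMI, 303 of 9360 genes (3.24%) were higher and 897 (9.58%) lower than in the 377 without one. The depths differed, with medians of 5336 and 3831 UMIs. KCNK2, a background potassium channel, had 167 CPM in nuclei with a MYH6 UMI and 9.48 CPM in those without (4.14, 3.31 to 5.04). CA3 had 167 and 585 CPM, TECRL 485 and 1156 CPM, and MYL3 29.8 and 71.1 CPM. MYH7 was alike, at 2017 and 2150 CPM.

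The contrast of slow with fast nuclei could be made in each muscle with no nucleus in common. Of 15856 genes compared in both, 148 were at least 2-fold higher in slow nuclei of both, which is 12.1% of the 1228 of EOM and 25.2% of the 588 of QFM. Another 229 were lower in slow nuclei of both, which is 17.7% of the 1296 of EOM and 20.2% of the 1131 of QFM. Of these 15856 genes, slow nuclei were higher in 7.74% and lower in 8.17% in EOM, and higher in 3.71% and lower in 7.13% in QFM. Of the 17558 genes compared in QFM alone, slow nuclei were higher in 4.1% and lower in 8.34%. Genes higher in slow nuclei of both muscles included slow sarcomere genes and others. DKK2 had 1829 CPM in slow-twitch-like and 46.2 CPM in MYH13 fast nuclei (5.31), and 288 CPM in QFM slow and 34.2 CPM in QFM fast nuclei (3.07). TECRL had log2 ratios of 6.29 in EOM and 2.37 in QFM, and CA3 of 5.68 and 2.55. PROX1 had 53.9 CPM in QFM slow and 9.32 CPM in QFM fast nuclei, a log2 ratio of 2.53 beside 4.63 in EOM. RYR3 had 2.82 in EOM and 2.78 in QFM. Some slow genes stood apart less in EOM. MYOM3, a myomesin of slow fibres, had log2 ratios of 0.26 in EOM and 2.67 in QFM, and ATP2A2 of 1.68 and 2.84.

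The reverse was seen for some genes. Of the 1296 genes lower in slow nuclei of EOM, 100 were higher in slow nuclei of QFM, against 3.71% of all genes compared. The other way, 130 of the 1228 genes higher in slow nuclei of EOM were lower in QFM, against 7.13% of all. KCNMA1 had 5163 CPM in slow-twitch-like and 16440 CPM in MYH13 fast nuclei (-1.67), and 571 CPM in QFM slow and 144 CPM in QFM fast nuclei (1.99). VEGFA, a growth factor for vessels, had 31.1 and 92.4 CPM in EOM (-1.57), and 241 and 91.1 CPM in QFM (1.40). COL25A1 was higher in slow nuclei of both, at 5.48 in EOM and 1.82 in QFM, whereas CHRNA1, at 3.24 and 0.34, was at least 2-fold higher in slow nuclei of EOM but not of QFM. The differences between the muscles in these ratios were not tested.

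**Figure D5:**
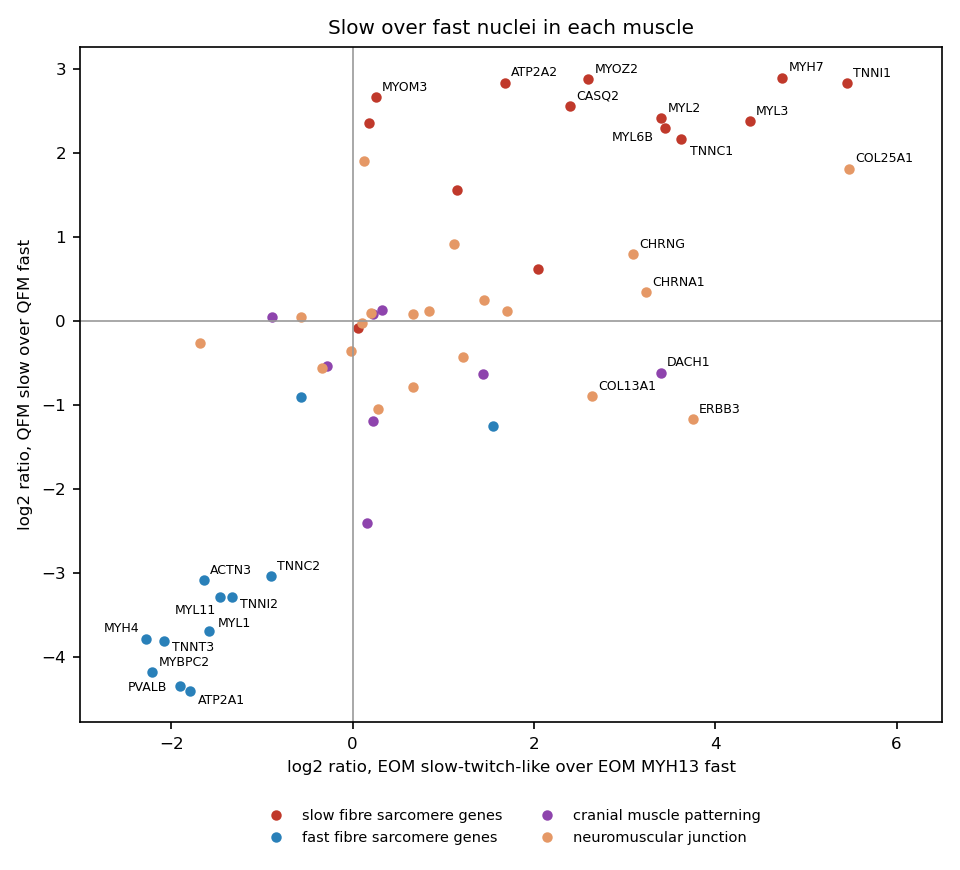
Log2 ratio of slow over fast nuclei in EOM (x axis, slow-twitch-like over MYH13 fast) and in QFM (y axis, QFM slow over QFM fast) for the genes of 4 lists; each point is 1 gene and grey lines mark equal levels. TNNI1 stands at 5.45 and 2.83, COL25A1 at 5.48 and 1.82, and the fast genes lie at lower left, apart from MYLK2 at 1.55 in EOM.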

How the data were processed

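Nuclei of EOM and QFM were compared, 1 library each, grouped by sample title. The values deposited by the authors are unnormalised UMI counts of each gene in each barcode. Cell Ranger 7.2.0 and Seurat 5.2.1 are named for the samples, per the submitters' processing notes. The sources used here give neither genome build nor annotation, nor how intronic reads were treated. Both tables hold 38550 features, of which 22005 carry a symbol; genes without one, among them TNNT1, TTN, MYH1, MYH2 and RYR1, were not analysed here. Every deposited barcode entered the rule for each set.

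Counts were summed over each set and divided by their total (CPM). Ratios have conditional exact binomial intervals, shares Clopper-Pearson intervals and levels exact Poisson intervals, all at 95%. These cover counting error only, since amplified reads and nuclei of 1 library are not independent samples. A count of 0 was taken as 3 counts per set. Genes with at least 20 counts over both sums were compared, and 2-fold or more was called. The ratio, its interval and the 2-fold call were checked on counts drawn at random from the sums with known changes put in. These draws held counting error only.

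For classes, barcodes with at least 200 genes and 500 UMIs and at most 10% mitochondrial UMIs were clustered in each library (scanpy 1.11.5, 2000 variable genes, 30 components, 15 neighbours, Leiden resolution 1, giving 21 and 22 clusters). Scrublet with an expected rate of 6% called doublets, which stayed in the sets and were left out in an alternative. Doublets were left out of the endothelial-like and other non-muscle reference levels. Python 3.11.15, numpy 2.4.6, scipy 1.17.1 and pandas 2.3.3 were used, with seed 1.

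The nuclei and gene lists were chosen with earlier results of these data known. Named genes were the 12 highest and 12 lowest ratios over QFM slow nuclei, and the 8 highest and 8 lowest of each other comparison, with at least 50 CPM in the higher set and a level above that of non-muscle nuclei of its library. From each list up to 8 genes reaching 5 CPM were added, in order of absolute ratio, with all label markers and heavy chains. Not every gene so chosen is named, and some are not reported here. DKK2, CORIN, KCNK2, VEGFA, COL24A1, PTN in the clusters, and other genes named for clusters 3 and 17, for MYH6 and for both muscles were chosen after their values were seen, as were list members named beyond that rule.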

Additional observations from a re-analysis of the deposited data

Results flagged for a closer look

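4 genes were at least 1.5 log2 units lower in slow than in fast nuclei of EOM and at least 1.5 higher in slow than in fast nuclei of QFM. FRZB, a secreted Wnt antagonist, had 13.8 CPM in EOM slow-twitch-like and 63.9 CPM in MYH13 fast nuclei, and 134 CPM in QFM slow and 28.3 CPM in QFM fast nuclei, so its slow over fast log2 ratio was 4.46 lower in EOM (-4.46). For GRAMD1B, a sterol transfer protein, the ratio in EOM minus that in QFM was -3.80, for KCNMA1 -3.66 and for E2F8, a cell cycle factor, -4.15. FRZB had 13.8 CPM in slow-twitch-like and 26.6 CPM in EOM endothelial-like nuclei, GRAMD1B 328.5 and 307 CPM, KCNMA1 5163 and 3337 CPM and E2F8 18.3 and 14.1 CPM. With 1 library per muscle the difference was not tested.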

How the results depend on the processing

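No paired analysis was possible because each muscle is 1 library and no test was made. Of 70 alternative counts of 2-fold genes, 56 stayed within 1.5 times the reported one. Of 735 list medians, 699 moved by less than 1.5 times in fold and none that was past 2-fold changed sign. Over QFM slow nuclei, 5 list medians moved further when EOM nuclei also needed more MYH7 than MYH3. Over QFM slow nuclei, the median of ratios gave 2449 lower genes and every gene with a count gave 7775 higher. Over slow-tonic-like nuclei, lower genes numbered 1417 without filtered barcodes and doublets, 1478 in myofibre-like nuclei, 1540 in nuclei led by MYH7, 1749 in cluster 3 and 1799 in cluster 17. There, thinning to 2000 UMIs gave 381 higher and 325 lower, every gene with a count 2512 and 1486, and leaving out barcodes above 20000 UMIs 420 and 356. Over MYH13 fast nuclei, every gene with a count gave 3457 higher. MYH7 led in 68.0% of nuclei with at least 10 MYH7 UMIs. Thinning to 1000 UMIs gave shares of 31.4% for MYL2, 9.22% for MYL3, 5.91% for MYH6 and 44.7% for TECRL.

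Of 5330 gene ratios recomputed, 3644 stayed within their counting interval and 25 that were past 2-fold changed sign. Over QFM slow nuclei these were MYH6 (-0.07) and KCNH7 (-1.21) with cluster 3 alone, and UCP2 (-0.59), CPT1A (-0.01), SGCE (-0.28) and LAMA2 (-0.04) with cluster 17 alone. Over slow-tonic-like nuclei they were MEOX1 (0.42) without barcodes above 20000 UMIs and, with cluster 17 alone, LRP2 (-3.06), CA3 (-1.96), TECRL (-0.98), PTN (-2.75), RALYL (-1.12), MYOM3 (-0.80), CAMK2G (-0.26), DACH1 (-0.13), SEMA3D (-0.45), SEMA3A (-1.52) and KCNH7 (0.03). Over MYH13 fast nuclei they were KCNH7 (-1.29) with cluster 3 alone, and LRP2 (-0.90), ITPR1 (-0.76), ETV4 (-1.12), SEMA3A (-1.59), LAMA2 (-0.31) and NR4A3 (-0.39) with cluster 17 alone. The alternatives by cluster and without deep barcodes were added after seeing the data. Other causes of these changes were not tested. The depth of 2024451 UMIs limits what can be said of genes under about 3 counts in the 432 nuclei.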
